A study of Homo sapiens with 80 samples.

Results

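KI-JK and SU-DHL-1, 2 established cell lines from anaplastic large cell lymphoma with the ALK fusion, were compared by RNA-seq in the state in which the study used them as controls. Per the labels SU-DHL-1 came from a lymph node and KI-JK from a pleural effusion. Cells of each line had been transduced with a control vector that carried no insert, and 3 libraries per line were sequenced from total RNA. These are 6 of the 80 samples of the series, chosen by their control labels in the tables of the CSNK2B experiment. The same tables hold 3 libraries per line with a CSNK2B vector, and another holds 3 libraries of parental SU-DHL-1 with Cas9 and an inducible ZFP91 guide, kept without doxycycline. These 9 libraries were used only to see whether a difference between the lines was also present elsewhere. The labels do not say that the 3 libraries of a group came from separate cultures, so p-values measure the spread between these libraries. Each line was handled as its own experiment, in medium with more serum for KI-JK. The line, its experiment and its medium therefore cannot be told apart, and "difference between the lines" below covers all of them.

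Anaplastic large cell lymphoma is a neoplasm of T cells. In its ALK-positive form a translocation fuses part of another gene, most often NPM1, to the kinase domain of ALK. The fusion kinase signals through JAK and STAT3, PI3-kinase and MAP kinase pathways. The cells express CD30, the product of TNFRSF8, and cytotoxic granule proteins, and commonly lack much of the T cell receptor complex. Lenalidomide and related drugs bind cereblon, the product of CRBN, and redirect the CRL4 ubiquitin ligase to zinc finger proteins such as IKZF1 and ZFP91, which the series is about.

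The libraries held 23.6 to 25.4 M counts for KI-JK and 14.4 to 24.1 M for SU-DHL-1. The first principal component separated the lines and held 98.1% of the variance. Genes of chromosomes X and Y were left out. Levels are library-size-scaled counts (CPM) after TMM scaling, differences are log2 of KI-JK over SU-DHL-1 with their standard error, and a gene was called at an adjusted p under 0.05 in edgeR's quasi-likelihood test. Of 13285 genes tested 10668 were called (80.3%), 5475 higher in KI-JK (41.2%) and 5193 lower (39.1%). The 3 libraries of one line did not overlap those of the other for 10867 genes (81.8%). Because most genes were called, a difference of at least 2-fold is used below. It was met by 4490 genes (33.8%), of which 2289 were higher (17.2%) and 2201 lower (16.6%). Within SU-DHL-1, empty-vector against parental libraries of another experiment gave 631 such genes of 12244 (5.15%). With no limit on size, 5863 of these 12244 genes were called. In bulk RNA, fewer cells with a transcript and less of it per cell cannot be told apart.

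One library stood apart in a small set of genes. The third SU-DHL-1 library held 17 genes at over 3 CPM that were at under 30% of that level in both other SU-DHL-1 libraries, against 0 or 1 such gene in each of the other 5. They were muscle genes such as ACTA1 (18.1 CPM against at most 0.704) and CKM (7.76 against at most 0.211), and immunoglobulin genes such as IGKC (21.8 against 0). None of these 17 is a member of a result below except IGKC in the B cell list. Without that library 4697 genes were called at 2-fold or more.

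MHC class II had the largest median difference of the lists with at least 10 genes tested. Class II molecules present peptides to CD4 T cells. Their genes are switched on by the coactivator CIITA, which is recruited to promoters by a complex that binds short boxes, the last of which, the Y box, is read by NF-Y at the letters CTGATTGG. Promoters are shown for the 4 class II list members in which these letters were found, with B2M, the class I light chain, beside them. Each is the 150 bases before the annotated start in RefSeq on GRCh38.p14, with the letters CTGATTGG in capitals.

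HLA-DRB1, chr6:32589849-32589998, minus strand: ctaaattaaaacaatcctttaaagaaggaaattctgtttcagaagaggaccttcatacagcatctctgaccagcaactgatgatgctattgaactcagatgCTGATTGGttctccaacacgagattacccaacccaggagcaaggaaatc

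HLA-DRB5, chr6:32530288-32530437, minus strand: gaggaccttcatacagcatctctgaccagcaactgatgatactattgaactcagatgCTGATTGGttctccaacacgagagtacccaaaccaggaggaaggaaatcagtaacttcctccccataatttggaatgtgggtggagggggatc

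HLA-DQB1, chr6:32666658-32666807, minus strand: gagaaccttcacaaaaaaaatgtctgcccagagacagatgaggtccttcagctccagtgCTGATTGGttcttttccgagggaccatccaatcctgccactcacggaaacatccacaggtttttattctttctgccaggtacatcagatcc

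HLA-DMA, chr6:32953098-32953247, minus strand: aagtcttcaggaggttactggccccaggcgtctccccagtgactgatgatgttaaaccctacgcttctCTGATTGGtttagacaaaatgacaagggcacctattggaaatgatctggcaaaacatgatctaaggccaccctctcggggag

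B2M, chr15:44711367-44711516, plus strand: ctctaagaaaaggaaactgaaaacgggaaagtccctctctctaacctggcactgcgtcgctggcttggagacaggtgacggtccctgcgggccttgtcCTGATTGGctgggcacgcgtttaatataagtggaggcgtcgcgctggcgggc

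The letters began 49 bases before the start in HLA-DRB1, 93 in HLA-DRB5, 91 in HLA-DQB1, 82 in HLA-DMA and 52 in B2M. Searched on both strands in windows from 250 bases before to 50 after a start, CTGATTGG was found in 4 of the 13 class II list members with an entry (30.8%). It was found in 1393 of 35116 such windows over all genes (3.97%). The match is a description of these letters and not a measured binding site.

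Of 15 class II genes tested, 13 were higher in KI-JK by at least 2-fold, 1 was lower and 1 was not called. Their median log2 difference was 5.67, against 0.02 over all genes tested. CIITA itself was at 125, 134 and 137 CPM in KI-JK and at 13.3, 13.4 and 12.3 CPM in SU-DHL-1, a log2 difference of 3.35 ± 0.06. The coactivator was thus read in both lines, at a lower level in SU-DHL-1. CD74, the invariant chain that chaperones class II molecules, was at 2340, 2340 and 2350 CPM in KI-JK and at 2.16, 1.48 and 3.39 CPM in SU-DHL-1 (log2 difference 9.95 ± 0.08, adjusted p = 6.77e-30 in edgeR's quasi-likelihood test). Its SU-DHL-1 values were low but not 0 in any library.

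The antigen-presenting chains fell into genes that SU-DHL-1 read at a low level and genes it did not read. HLA-DRA, the DR alpha chain, was at 801, 769 and 759 CPM in KI-JK and at 16.9, 14.8 and 18.7 CPM in SU-DHL-1 (5.52 ± 0.05). HLA-DRB1 (chromosome 6, 32578775 to 32589848) was at 390, 374 and 373 CPM against 0.0849, 0 and 0.0606 CPM. With 3 counts over the SU-DHL-1 libraries its ratio was 6860, with a 95% counting interval of 2350 to 33200. HLA-DRB5 (378, 351 and 351 CPM) and HLA-DQB1 (82.3, 73.1 and 79.7 CPM) had no counts in SU-DHL-1, and were at least 6500-fold and at least 1410-fold higher in KI-JK. Such a bound sets the empty side at 3 counts for its 3 libraries together and, like the interval, covers counting error only. HLA-DRB1 and HLA-DRB5 are close copies, and how the authors divided reads between them is not given in the sources used here, so their separate values are uncertain. HLA-DQA1 (11.1, 9.14 and 10.4 CPM) was at least 185-fold higher.

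The DP chains and the accessory molecules moved the same way. HLA-DPA1 was at 255, 240 and 242 CPM against 3.31, 3.52 and 4.06 CPM (6.09 ± 0.07), and HLA-DPB1 differed by 5.67 ± 0.09. HLA-DMA and HLA-DMB, which load peptide, differed by 4.89 ± 0.09 and 3.53 ± 0.17. HLA-DOA, which restrains loading, was at 26.0, 26.9 and 28.9 CPM against 0.0424, 0 and 0.0606 CPM, a ratio of 739 (204 to 6110). Its partner HLA-DOB was not called (adjusted p = 0.0766), at 0.404 to 0.914 CPM in KI-JK and 0.282 to 0.467 CPM in SU-DHL-1, but was called higher (1.17) without the first KI-JK library. The exception in direction was CTSS, a lysosomal protease, at 0.943, 1.32 and 1.26 CPM against 3.39, 3.10 and 2.67 CPM (-1.38 ± 0.26), and against parental SU-DHL-1 it was 0.81 in the other direction and not called. The remaining 13 class II genes with a call were called in the same direction with the CSNK2B vector and against parental SU-DHL-1.

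**Figure D1:**
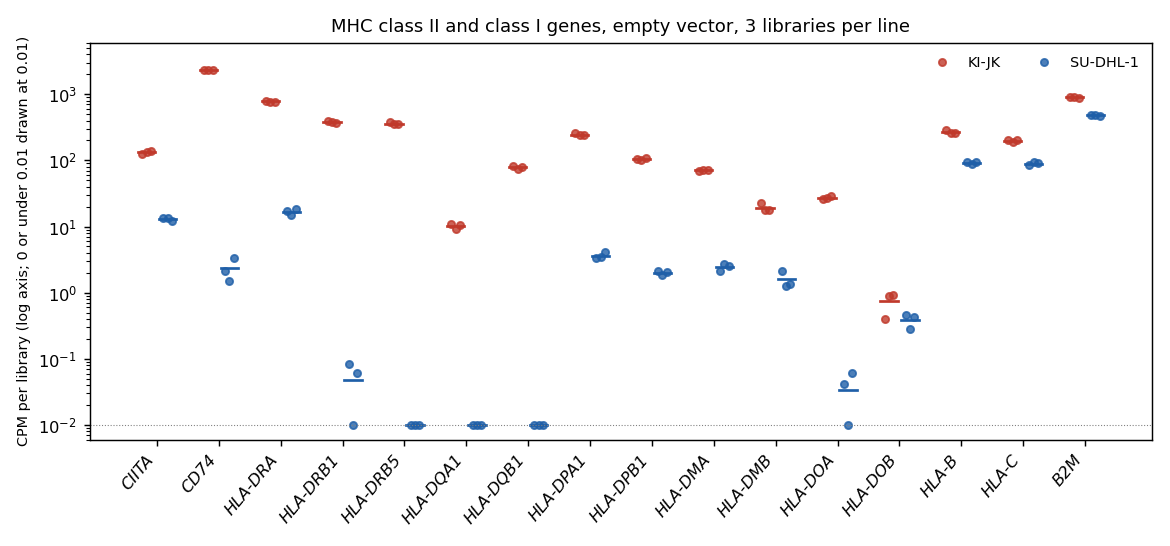
CPM per library (log axis) of 13 MHC class II and 3 class I genes in KI-JK (red) and SU-DHL-1 (blue), 3 libraries each, with points for libraries and short lines for means. Values of 0 or under 0.01 are drawn at 0.01, and class II genes other than HLA-DOB are separated by far more than the class I genes at the right.

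MHC class I genes differed less. Class I molecules display peptides from inside the cell to CD8 T cells. Of 20 tested, 15 were higher in KI-JK, 8 of them by at least 2-fold, and 3 were lower, 1 of them by at least 2-fold (median 0.89). B2M was at 913, 893 and 885 CPM against 487, 485 and 474 CPM (0.90 ± 0.03). HLA-B (1.53 ± 0.04), HLA-C (1.16 ± 0.04) and the peptide transporter subunit TAP1 (1.28 ± 0.04) passed 2-fold. NLRC5, the class I counterpart of CIITA, was at 44.0, 40.3 and 43.6 CPM against 14.6, 17 and 14.7 CPM (1.47 ± 0.07). Against parental SU-DHL-1 TAP1 (0.84) and NLRC5 (0.63) were under 2-fold, while HLA-B (2.16) and HLA-C (1.13) stayed over it. The largest class I difference was in HLA-F, a nonclassical chain, at 25.6, 27.5 and 25.8 CPM against 0.339, 0.422 and 0.364 CPM (6.13 ± 0.16). ERAP2, a peptide-trimming protease, was the one called lower by 2-fold, at 9.29, 9.64 and 9.62 CPM against 53.2, 57.0 and 56.5 CPM (-2.54 ± 0.07).

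ALK and the genes that mark the disease were read in both lines. ALK was at 401, 384 and 391 CPM in KI-JK and at 512, 511 and 483 CPM in SU-DHL-1 (-0.36 ± 0.03). NPM1, its usual fusion partner, was not called (0.06 ± 0.03, adjusted p = 0.0835), with 1760, 1750 and 1710 CPM against 1710, 1650 and 1650 CPM. It was called without the third KI-JK library (0.07) and against parental SU-DHL-1 (0.30). TNFRSF8, which encodes CD30, was at 966, 985 and 1010 CPM against 428, 445 and 424 CPM (1.19 ± 0.03). BATF3, a factor typical of this lymphoma, differed by 0.61 ± 0.03. Both lines thus read ALK and TNFRSF8, within 2-fold of each other for ALK and somewhat over it for TNFRSF8. Against parental SU-DHL-1 the TNFRSF8 difference was 0.82, under 2-fold. Counts per gene do not show the fusion transcript itself.

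Of 22 tested genes of the ALK and lymphoma signature list, 8 were higher and 5 lower in KI-JK by at least 2-fold. FUT7, a fucosyltransferase of selectin ligands, was at 78.2, 76.7 and 74.5 CPM against 0.0424, 0.211 and 0 CPM (9.90 ± 0.17). TNC, the matrix protein tenascin, was at 494, 510 and 555 CPM against 10.6, 9.79 and 11.7 CPM (5.6 ± 0.06). PRDM1, which encodes the terminal differentiation factor BLIMP1, differed by 3.61 ± 0.06. In the other direction TNFRSF9, the costimulatory receptor 4-1BB, was at 0, 0.453 and 0 CPM against 119, 127 and 117 CPM (-9.52 ± 0.18). SOX2, a stem cell factor, differed by -4.86 ± 0.13. IL2RA, the alpha chain of the interleukin-2 receptor, was at 615, 629 and 614 CPM against 1920, 1920 and 1850 CPM (-1.61 ± 0.03).

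JAK and STAT genes differed in both directions, also between paralogs. Janus kinases phosphorylate STAT proteins, which then act as transcription factors. All 24 genes tested were called, against 80.3% of all genes, and 10 were higher and 4 lower by at least 2-fold (58.3% against 33.8%). STAT3 was at 466, 494 and 500 CPM in KI-JK and at 1610, 1600 and 1600 CPM in SU-DHL-1 (-1.72 ± 0.03). STAT5B, at 96.8, 101 and 101 CPM against 366, 382 and 369 CPM, was lower by a like amount (-1.90 ± 0.04). STAT5A, the close homolog beside it on chromosome 17, went the other way, at 85.7, 87.1 and 86.2 CPM against 0.509, 0.282 and 0.485 CPM (7.59 ± 0.11). The kinase JAK1 was at 560, 582 and 586 CPM against 131, 124 and 116 CPM (2.22 ± 0.04), and JAK3 differed by 0.86 ± 0.04. Of the inhibitors, SOCS2 was higher (5.63 ± 0.33) and CISH lower (-1.11 ± 0.07) in KI-JK. The STAT3, STAT5A, STAT5B and JAK1 differences were -1.83, 7.27, -2.18 and 2.16 with the CSNK2B vector and -2.02, 7.54, -1.74 and 2.27 against parental SU-DHL-1.

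**Figure D2:**
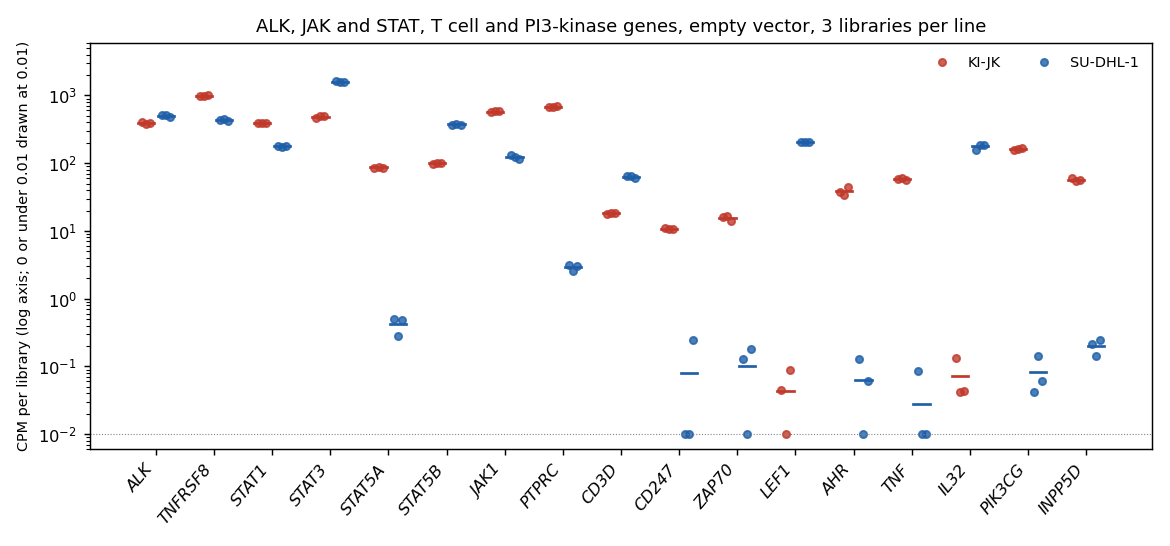
CPM per library (log axis) of 17 genes of ALK, JAK and STAT signalling, T cell identity and PI3-kinase signalling in KI-JK (red) and SU-DHL-1 (blue), 3 libraries each, with points for libraries and short lines for means. Values of 0 or under 0.01 are drawn at 0.01. ALK lies close in both lines, whereas STAT5A, PTPRC and PIK3CG are high in KI-JK only and LEF1 and IL32 in SU-DHL-1 only.

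T cell receptor genes were low or unread in both lines, and what remained differed. The receptor is a pair of alpha and beta or gamma and delta chains held by CD3 and zeta chains. Only 5 of 10 such genes were tested, and CD3E and CD3G were at under 0.1 CPM in all 6 libraries. CD3D was read more in SU-DHL-1, at 17.8, 18.3 and 18.6 CPM against 64.7, 64.2 and 60.8 CPM (-1.79 ± 0.06). CD247, the zeta chain, was read at 10.9, 10.8 and 10.7 CPM in KI-JK and at 0, 0 and 0.242 CPM in SU-DHL-1 (7.07 ± 0.35). TRBC2, a beta chain constant region, was at 9.52, 9.84 and 9.31 CPM against 1.06, 1.55 and 1.33 CPM (2.90 ± 0.18). Of 21 listed surface and identity genes 13 were at under 1 CPM in both lines, among them CD2, CD4, CD7 and CD28. PTPRC, the phosphatase CD45 of all white blood cells, was at 678, 675 and 695 CPM in KI-JK and at 3.10, 2.6 and 3.03 CPM in SU-DHL-1 (7.85 ± 0.06). CD5 was lower in KI-JK, at 23.7, 22.2 and 24.2 CPM against 127, 119 and 124 CPM (-2.40 ± 0.05), as was the costimulator ICOS (-7.64 ± 0.20).

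Downstream of the receptor, 7 of 20 proximal signalling genes were higher and 5 lower by at least 2-fold. ZAP70, the kinase recruited to zeta, was at 16.1, 16.4 and 14.2 CPM against 0.127, 0 and 0.182 CPM (7.06 ± 0.27), and its adaptor LCP2 differed by 3.05 ± 0.10. LCK, the kinase upstream of ZAP70, was at under 0.1 CPM in all 6 libraries. The 2 NFAT factors tested here at opposite ends were NFATC2, at 4.89, 5.85 and 6.96 CPM against 0, 0.141 and 0 CPM (ratio 160, interval 44.1 to 1330), and NFATC1, at 0.224, 0.288 and 0.696 CPM against 10.6, 11.7 and 12.7 CPM (-4.83 ± 0.24). Each line therefore read one and nearly lacked the other.

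Lineage transcription factors were also divided between the lines. All 23 tested were called, against 80.3% of all genes, and 10 were higher and 4 lower by at least 2-fold (60.9% against 33.8%). All 14 kept their direction and call with the CSNK2B vector and against parental SU-DHL-1. AHR, a ligand-activated factor of helper T cells, was at 37.2, 33.9 and 44.5 CPM against 0.127, 0 and 0.0606 CPM (8.92 ± 0.24). SATB1, a chromatin organizer of thymocytes, differed by 4.59 ± 0.10, and EOMES, a factor of memory and cytotoxic cells, was at least 102-fold higher. LEF1 (chromosome 4), a partner of beta-catenin in early T cells, was at 0.0449, 0 and 0.087 CPM in KI-JK and at 202, 202 and 203 CPM in SU-DHL-1, a ratio of 4690 (1600 to 22700). GATA3, the factor of type 2 helper cells, was at 11.9, 10.6 and 12.5 CPM against 29.7, 27.1 and 31.1 CPM (-1.33 ± 0.08). TBX21, of type 1 helper cells, was at under 0.2 CPM in all 6 libraries.

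Of 18 cytotoxic granule genes 6 were at under 1 CPM in both lines, among them GNLY and FASLG. Of the 12 tested, 6 were higher in KI-JK by at least 2-fold (50% against 17.2% over all genes) and none was called lower. PRF1, the pore-former perforin, was at 1700, 1670 and 1730 CPM against 674, 677 and 651 CPM (1.35 ± 0.03). Its difference was 0.74 against parental SU-DHL-1, under 2-fold. GZMB, which encodes granzyme B, was at 1530, 1470 and 1470 CPM against 599, 624 and 584 CPM (1.30 ± 0.03), but the difference was 0.22 against parental SU-DHL-1. RAB27A, which docks granules, differed by 2.70 ± 0.05. GZMA was not called here, at 36.0, 32.5 and 31.4 CPM against 32.3, 34.4 and 33.8 CPM (-0.01 ± 0.06), and was higher in KI-JK by 1.77 against parental SU-DHL-1.

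Cytokines were divided between the lines as well. Of 15 tested, 5 were higher and 4 lower in KI-JK by at least 2-fold, and 20 of 33 listed were at under 1 CPM in both lines. TNF was at 58.8, 60.1 and 56.8 CPM in KI-JK and at 0.0849, 0 and 0 CPM in SU-DHL-1 (ratio 1590, interval 440 to 13100). LIF, a cytokine of the interleukin-6 family, was at 46.1, 43.7 and 41.3 CPM against 0.339, 0.282 and 0.242 CPM (7.18 ± 0.15). IL17F was at least 23.2-fold higher, at 0.989 to 1.48 CPM. IL32 was at 0.135, 0.0412 and 0.0435 CPM against 159, 186 and 188 CPM (-11.15 ± 0.15), and IL10 at 73.5, 72.7 and 72.3 CPM against 204, 203 and 191 CPM (-1.45 ± 0.04). Among receptors 10 of 30 were higher and 9 lower by at least 2-fold, with IL18RAP (5.57 ± 0.15), IL12RB2 (5.51 ± 0.17) and the lymph node homing receptor CCR7 (4.14 ± 0.19) higher. CCR1, a chemokine receptor, was at 0.539, 0.535 and 0.435 CPM against 26.5, 25.1 and 21.6 CPM (-5.59 ± 0.17).

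The genes at the centre of the series differed little beside these. ZFP91 was at 94.7, 99.3 and 104 CPM in KI-JK and at 126, 116 and 117 CPM in SU-DHL-1 (-0.27 ± 0.04). IKZF1, the Ikaros factor of lymphoid cells, was at 364, 363 and 383 CPM against 360, 365 and 345 CPM, and was not called (0.05 ± 0.04, adjusted p = 0.176), but was lower in KI-JK by 0.75 on the log2 scale against parental SU-DHL-1. IKZF3 had no counts in any of the 6 libraries. CRBN was at 20.5, 19.4 and 23.1 CPM against 41.4, 37.2 and 39.3 CPM (-0.91 ± 0.07), and its difference was -1.04 with the CSNK2B vector and -0.95 against parental SU-DHL-1. CRBN was thus lower in KI-JK in each set of libraries, with no overlap between the 2 lines in the empty-vector libraries.

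Among 21 tested neosubstrates, the proteins that drug-bound cereblon can take, 1 was higher and 2 were lower by at least 2-fold (14.3%, against 33.8% over all genes). E4F1 was higher (1.19 ± 0.06), and ZNF827 (-2.58 ± 0.14) and IKZF4 (-1.95 ± 0.11) lower. In the list of the cereblon ligase and its regulators and natural clients 2 of 26 were higher and 4 lower by at least 2-fold (median -0.28). This was 23.1%, under the 33.8% over all genes. MEIS2, a homeobox factor and cereblon client, was at 0.0898, 0.0824 and 0.218 CPM against 53.3, 50.2 and 51.8 CPM (-8.58 ± 0.16). GLUL, the glutamine synthetase that cereblon also binds, was at 57.3, 53.1 and 58.0 CPM against 255, 266 and 252 CPM (-2.2 ± 0.04). NAE1, a subunit of the enzyme that activates the ubiquitin-like modifier of cullins, differed by -1.57 ± 0.04, while UBE2M, its conjugating enzyme, differed by 1.05 ± 0.04. The scaffold DDB1 differed by -0.27 ± 0.03 and CUL4A by 0.33 ± 0.04.

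CSNK2B, the regulatory subunit of casein kinase 2 and the insert of the other vector, was at 19.4, 16.6 and 19.5 CPM against 31.1, 29.7 and 30.6 CPM (-0.72 ± 0.07). This difference was -0.01 and not called against parental SU-DHL-1. The catalytic subunits CSNK2A1 (-0.34 ± 0.04) and CSNK2A2 (-0.29 ± 0.04) were slightly lower in KI-JK. MYC was at 144, 142 and 146 CPM against 307, 317 and 303 CPM (-1.10 ± 0.04), and stayed lower in KI-JK with the CSNK2B vector (-0.97) and against parental SU-DHL-1 (-1.46). JUN was at 134, 136 and 138 CPM against 70.5, 68.8 and 72.0 CPM (0.95 ± 0.04). IRF4, at 724, 746 and 775 CPM against 573, 568 and 563 CPM (0.40 ± 0.03), was lower by 0.26 against parental SU-DHL-1. IRF5 stood out in the list of AP-1, BATF and IRF factors, at 354, 360 and 375 CPM against 16.9, 15.8 and 15.8 CPM (4.48 ± 0.05), and BATF differed by 1.61 ± 0.05. Of the 24 factors tested, 7 were higher and 4 lower by at least 2-fold.

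Signalling pathways that the ALK fusion feeds held large differences in single genes. In the PI3-kinase list 5 of 20 were higher and 4 lower by at least 2-fold. PIK3CG, the gamma catalytic subunit, was at 159, 160 and 168 CPM in KI-JK and at 0.0424, 0.141 and 0.0606 CPM in SU-DHL-1 (10.99 ± 0.13). INPP5D, the lipid phosphatase SHIP1, was at 60.3, 55.4 and 55.5 CPM against 0.212, 0.141 and 0.242 CPM (8.09 ± 0.14). Of 18 MAP kinase feedback genes 5 were higher and 6 lower. DUSP4 was at 162, 158 and 162 CPM against 1.32, 1.41 and 1.15 CPM (6.95 ± 0.08) and its relative DUSP6 at 1.53, 1.28 and 1.74 CPM against 21.2, 20.1 and 21.7 CPM (-3.79 ± 0.13). EGR1, an immediate early factor, differed by -4.61 ± 0.09. In the NF-kB list 7 of 26 were higher and 3 lower (38.5%, near the 33.8% over all genes), with TRAF1 (6.04 ± 0.17) and NFKBIZ (4.08 ± 0.08) higher and CD40 at 0.0449, 0.0824 and 0.131 CPM against 17, 19 and 17.8 CPM (-7.60 ± 0.24).

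Interferon-stimulated genes were split. Of 40 tested, 12 were higher and 5 lower by at least 2-fold (42.5% against 33.8% over all genes, median 0.14). MX1, an antiviral GTPase, was at 135, 128 and 142 CPM in KI-JK and at 0, 0 and 0.121 CPM in SU-DHL-1 (ratio 3670, interval 1010 to 30300). OAS2 was higher (4.03 ± 0.07), whereas OAS3, of the same family of RNA sensors, was at 0.224, 0.0412 and 0.566 CPM against 17, 17.4 and 16 CPM (-5.91 ± 0.25). IFIH1, another RNA sensor, was not called at 27.8, 31.9 and 28.7 CPM against 28.4, 28.8 and 30.7 CPM. Among innate sensors 2 of 19 were higher and 6 lower (42.1% against 33.8% over all genes). The inflammasome protein NLRP3 was at 13.4, 13.8 and 16.7 CPM against 111, 110 and 111 CPM (-2.92 ± 0.06). STING1 was at 154, 147 and 145 CPM against 515, 531 and 517 CPM (-1.81 ± 0.04).

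Adhesion genes were higher in KI-JK in 13 of 29 cases and lower in 4 by at least 2-fold. ITGA4, the integrin chain of VLA-4, was at 148, 153 and 152 CPM against 0.255, 0.0704 and 0.0606 CPM (9.94 ± 0.12), and ITGAL, the alpha chain of LFA-1, at 19.4, 20.3 and 22.5 CPM against 0.0424, 0 and 0 CPM (ratio 1130, interval 202 to 44500). CD44, the hyaluronan receptor, went the other way at 0.494, 1.07 and 2.18 CPM against 158, 156 and 153 CPM (-6.95 ± 0.12). The S100 and SERPINB list had 7 of 12 higher and 3 lower. S100A9, a calcium-binding protein best known from neutrophils, was at 389, 369 and 363 CPM against 0.382, 0.563 and 0.606 CPM (9.54 ± 0.09). SERPINB1, an inhibitor of serine proteases, was at 236, 227 and 222 CPM against 1300, 1320 and 1240 CPM (-2.49 ± 0.04).

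Of 27 apoptosis regulators 4 were higher and 6 lower by at least 2-fold (37.0%), a share near the 33.8% over all genes. BID, which links death receptors to mitochondria, was at 2.2, 2.10 and 2.92 CPM in KI-JK and at 42.9, 47.2 and 49.4 CPM in SU-DHL-1 (-4.27 ± 0.11), and TNFRSF10A, a receptor for the death ligand TRAIL, was at least 181-fold higher in KI-JK. Of 24 p53 pathway genes 4 were higher and 7 lower (45.8%). TP73, a p53 homolog, was at 49.3, 52.7 and 53.1 CPM against no counts (at least 936-fold higher), and PHLDA3, a p53 target, was lower (-6.67 ± 0.19). CDKN1A, the p53 target p21, was not called at 352, 355 and 359 CPM against 338, 358 and 342 CPM (0.04 ± 0.03).

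Proliferation genes had the smallest share of 2-fold differences among lists of 20 or more tested genes. Of 30 tested 2 were higher and 2 lower by at least 2-fold (13.3% against 33.8% over all genes). MKI67, the proliferation antigen Ki-67, was at 506, 567 and 565 CPM in KI-JK and at 558, 491 and 623 CPM in SU-DHL-1, and was not called (-0.03 ± 0.06, adjusted p = 0.639), though it was without the second SU-DHL-1 library (-0.13). FOXM1 (1.24 ± 0.04) and AURKB (-1.54 ± 0.04), both regulators of mitosis, passed 2-fold in opposite directions. Of 19 cell cycle regulators 1 was higher and 2 lower, with CDK6, a kinase of the G1 phase, at 231, 255 and 257 CPM against 1170, 1070 and 1200 CPM (-2.21 ± 0.04) and the inhibitor CDKN1B higher (1.81 ± 0.08).

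Genes of sterol and fatty acid synthesis passed 2-fold more often downward than upward in KI-JK. Of 26 cholesterol and fatty acid synthesis genes 3 were higher and 12 lower by at least 2-fold (median -0.67). CYP51A1, a demethylase of the later steps (-4.74 ± 0.15), and IDI1, an isomerase of the early ones (-2.12 ± 0.05), were lower. INSIG1, which restrains sterol synthesis, was higher (1.45 ± 0.04). The media of the lines differed in serum, a source of cholesterol, and its part in these values was not tested. In the hypoxia and glycolysis list 4 of 32 were higher and 5 lower (28.1%, near the 33.8% over all genes), CA9, a carbonic anhydrase, being at 0, 0.0412 and 0 CPM against 152, 157 and 153 CPM (ratio 10700, interval 1910 to 421000). The hypoxia target VEGFA differed the other way (1.26 ± 0.06).

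Chromatin and developmental genes held large differences in single genes. By the rule given below, KDM5B and LIN28B were read in SU-DHL-1 only. Of 31 DNA and histone modifiers 2 were higher and 5 lower by at least 2-fold (22.6% against 33.8% over all genes). KDM5B, a histone H3K4 demethylase, was at 0.0898, 0.0824 and 0.087 CPM against 51.5, 52.9 and 51.9 CPM (-9.14 ± 0.15), while its paralog KDM5A was not called (0.03 ± 0.05). IDH2, the mitochondrial isocitrate dehydrogenase, was at 0.18, 0.0412 and 0.435 CPM against 34.4, 32.6 and 31.5 CPM (-7.21 ± 0.20). SMARCA2, a remodelling ATPase, was at 101, 102 and 103 CPM against 8.32, 9.36 and 9.33 CPM (3.52 ± 0.06), while SMARCA4 was not called (0.01 ± 0.03), but was lower by 0.56 on the log2 scale against parental SU-DHL-1. Of 18 homeobox genes 7 were higher and 8 lower by at least 2-fold. HOXC10 (2.87 ± 0.30) and HOXC6 (2.09 ± 0.20) were higher and HOXB4 (-3.41 ± 0.10) and HOXB3 (-3.13 ± 0.15) lower. The HOXC cluster went both ways, since HOXC9, named after its value was seen, was lower (-2.62 on the log2 scale). GNAS, an imprinted gene for a G protein subunit, was at 2.74, 0.535 and 2.09 CPM against 242, 245 and 230 CPM (-7.08 ± 0.12). LIN28B, a repressor of let-7 microRNAs in early development, was at no counts against 24.9, 28.0 and 27.7 CPM, at least 615-fold lower in KI-JK.

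**Figure D3:**
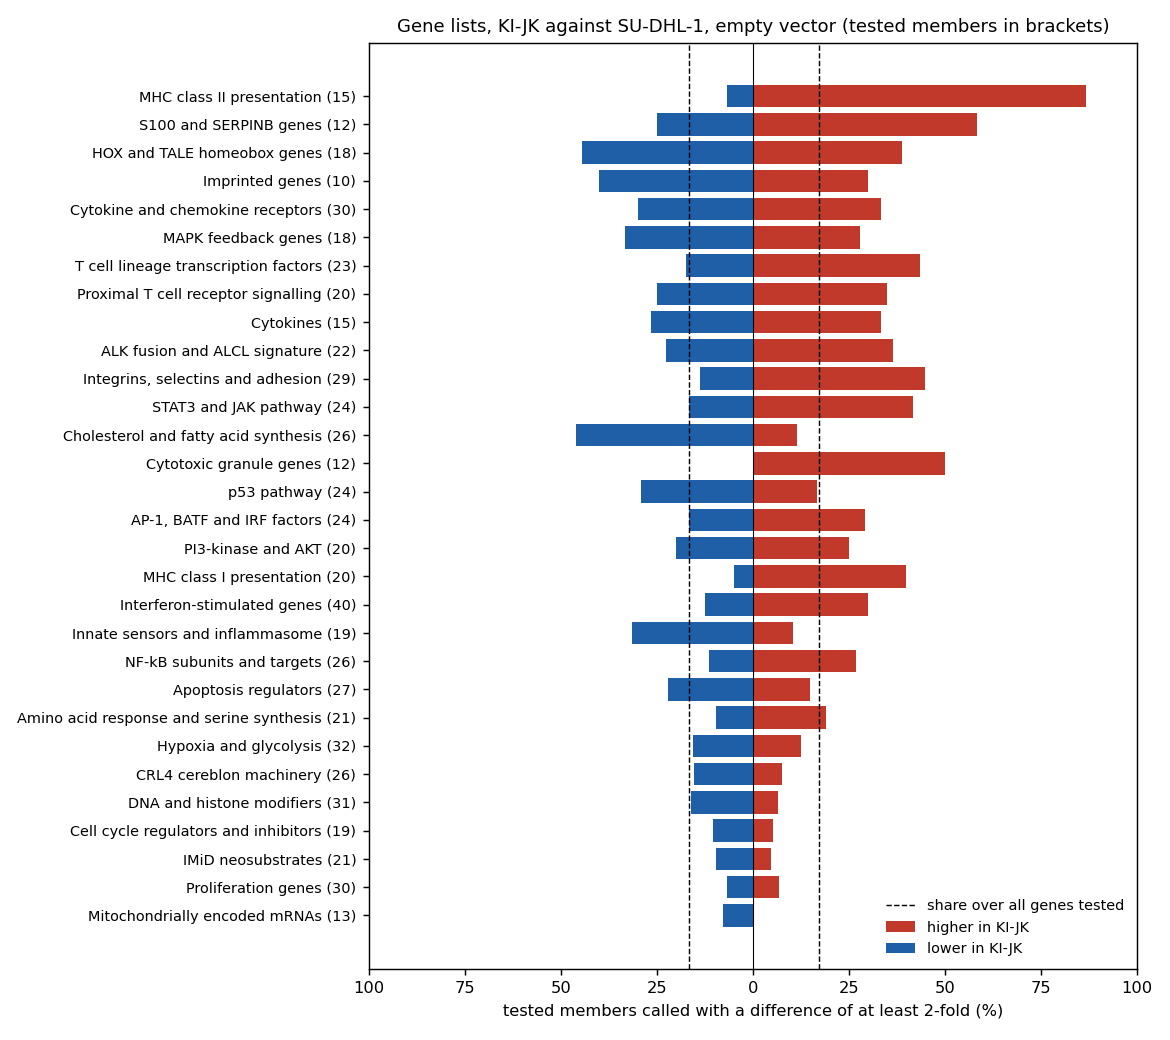
Share of the tested members (number in brackets) of each list with 10 or more of them, marker lists and lists picked within SU-DHL-1 left out, that were called with a difference of at least 2-fold, to the right for higher and to the left for lower in KI-JK. Dashed lines mark the shares over all genes tested, 17.2% and 16.6%. MHC class II lies far to the right, cholesterol and fatty acid synthesis reaches well to the left, and mitochondrial mRNAs, proliferation genes and neosubstrates have the shortest bars.

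Outside the lists, the largest differences were in genes read in only one line. By a rule of under 0.1 CPM in every library of one line and at least 5 CPM in every library of the other, 93 genes were read in KI-JK only and 106 in SU-DHL-1 only. Of the 93, 77 were protein-coding, and their median level was 16.8 CPM. With the CSNK2B vector, in CPM without TMM scaling, 56 of them met the same limits, as did 86 of the 106. In parental SU-DHL-1, scaled likewise, 63 of the 93 stayed under 0.1 CPM and 87 of the 106 at 5 CPM or more. ZBED2, a zinc finger factor, was at 306, 297 and 298 CPM in KI-JK with no counts in SU-DHL-1, at least 5430-fold higher. WLS, which carries WNT proteins to the surface, was at 128, 125 and 131 CPM (at least 2320-fold higher), and PNMA2 at 111, 121 and 126 CPM (at least 2170-fold). CLEC4F, a C-type lectin, and ATP6V0A4, a proton pump subunit, were at least 1590-fold and at least 1360-fold higher.

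In SU-DHL-1 the counterparts were CLEC4D, another C-type lectin, at 157, 159 and 161 CPM (at least 3680-fold lower in KI-JK), and FGB, the fibrinogen beta chain, at 98.4, 99.3 and 93.9 CPM (at least 2250-fold). GTSF1, a germline factor of the piRNA pathway, was at 53.2, 53.8 and 52.7 CPM (at least 1230-fold), and the zinc transporter SLC39A4 was at least 957-fold lower. NKX2-2 and NKX2-5, homeobox factors of the nervous system and heart, had no counts in KI-JK and 28.8 to 31.0 CPM and 21.2 to 22.7 CPM in SU-DHL-1. Several of these genes are typical of tissues other than lymphocytes, and each was read at like levels in all 3 libraries of its line.

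Close levels were common too. For 7289 of the 13285 genes (54.9%) the 95% interval of the difference lay within 2-fold in either direction, and for 4330 (32.6%) within 1.5-fold. SELPLG, the selectin ligand PSGL-1, is an example at 195, 190 and 199 CPM against 197, 201 and 199 CPM (-0.03 ± 0.04, called at -0.09 when scaled by library size only). For NPM1, IKZF1 and CDKN1A, given above as not called, the intervals also lay within 1.5-fold.

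Differences were not spread evenly over the genome. Positions are RefSeq's on GRCh38.p14, and the authors' build was hg38 per the submitters' processing notes. Over 840 tested genes of chromosome 17 the median log2 difference was -0.59, with 64.4% called lower and 19.2% higher, against 39.1% and 41.2% over all genes. Chromosome 20 had a median of -0.49 with 66.5% called lower. In the other direction chromosome 9 had a median of 0.48 with 61.9% called higher, and chromosome 22 one of 0.44 with 62.6%. Running medians over 51 neighbouring tested genes ranged from -2.39 to 1.18.

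Runs of at least 10 windows with a median of 1 or more in size, a threshold chosen after the values were seen, gave 10 stretches, 8 of them lower in KI-JK. The 8 held 366 genes, 2.75% of those tested, and 12.2% of the 2201 genes that were lower by at least 2-fold. In these stretches 269 genes (73.5%) were lower by at least 2-fold. Since the stretches were chosen by these values, the shares are a description.

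**Figure D4:**
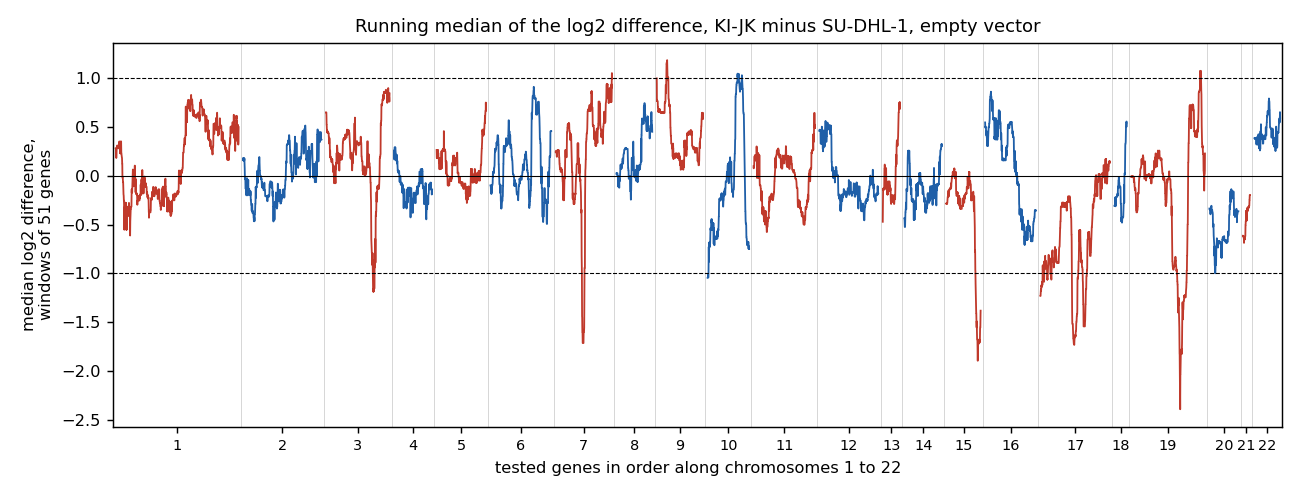
Running median of the log2 difference over 51 neighbouring tested genes, in order along chromosomes 1 to 22, with dashed lines at -1 and 1. Troughs on chromosomes 7, 15, 17 and 19 reach below -1, the deepest at -2.39 on chromosome 19.

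The longest by gene number lay on chromosome 19 from 40.8 to 47.0 Mb, with 110 tested genes, 98 of them called lower and a median of -1.38. Among its highest were TOMM40, of the mitochondrial import channel (-2.03 ± 0.03), SNRPD2, of the spliceosome (-1.65 ± 0.04), and RPS19, a ribosomal protein (mean CPM 1780 against 2960, -0.74 ± 0.03, but -0.11 and not called against parental SU-DHL-1). Of its 15 ZNF genes, which encode zinc finger repressors, 14 were lower, with a median of -2.86 against -1.32 for the other genes there. On chromosome 15, from 82.5 to 94.5 Mb, 54 of 59 genes were called lower (median -1.68), among them IQGAP1 (-1.28 ± 0.04), FANCI of the Fanconi anaemia pathway (-1.68 ± 0.04) and the protease FURIN (-1.38 ± 0.04). On chromosome 7, from 84.0 to 92.6 Mb, 25 of 29 were lower (median -2.05).

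Chromosome 17 held 3 stretches. From 40.6 to 44.1 Mb 66 of 72 genes were called lower (median -1.65), and this stretch holds STAT3 and STAT5B beside BRCA1 (-1.48 ± 0.04), ACLY, which makes acetyl-CoA for lipids (-1.73 ± 0.04), EIF1 (-1.84 ± 0.03) and RPL27 (mean CPM 518 against 1620, -1.65 ± 0.04). STAT5A, at 42287439 to 42311943 between STAT5B and STAT3, went the other way, as given above. From 47.0 to 50.0 Mb 43 of 47 were lower (median -1.66), including IGF2BP1 (-2.52 ± 0.04), PHB, a mitochondrial scaffold (-2.08 ± 0.04), and the HOXB genes above. From 1.8 to 3.8 Mb 22 of 24 were lower (median -1.18). The stretch on chromosome 10 from 6.4 to 11.6 Mb holds GATA3 and PRKCQ, both lower, and CELF2, an RNA-binding protein, which was higher (mean CPM 240 against 22.8, 3.39 ± 0.05). Medians of the 8 lower stretches were -1.18 to -1.98 with the CSNK2B vector and -1.03 to -1.82 against parental SU-DHL-1. DNA copy number was not measured in the data used here, and its part was not tested.

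The differences were compared with those in libraries that had not entered the fit. With the CSNK2B vector the same lines gave 10517 called genes of 13019 (80.8%), and 4298 at 2-fold or more (33.0%). Of 4269 genes that differed by at least 2-fold with the empty vector and were tested in both, 4134 (96.8%) were called in the same direction with the CSNK2B vector. Of all 10445 called, 9265 (88.7%) kept their direction and call and 138 were called in the opposite direction. The log2 differences correlated with r = 0.972 over 12885 genes, which are not independent replicates. These libraries share no sample with the first comparison, but come from the same experiments of the same lines.

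**Figure D5:**
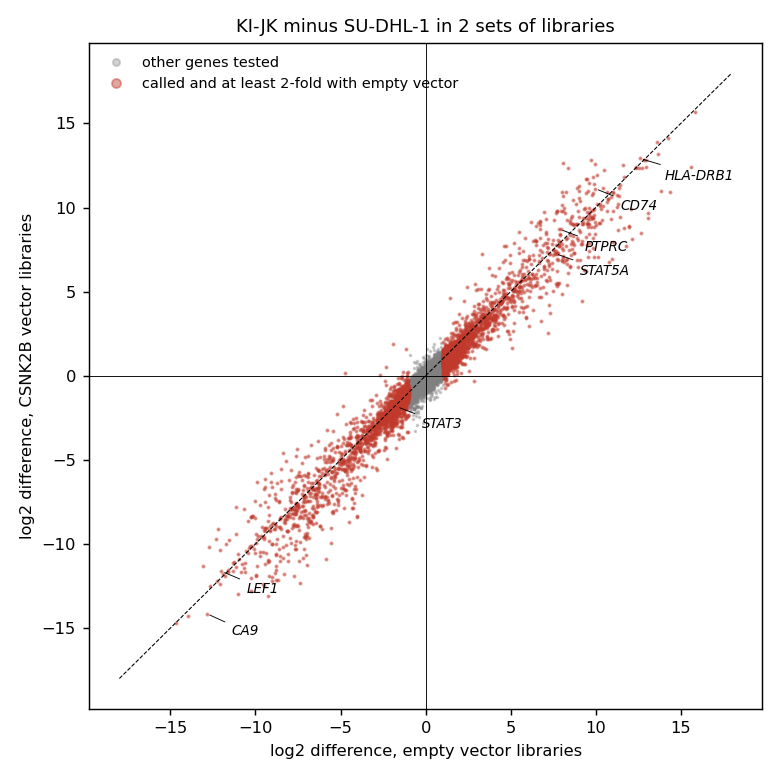
Log2 difference between KI-JK and SU-DHL-1 for 12885 genes in the empty-vector libraries (horizontal) and the CSNK2B-vector libraries (vertical), red for genes called with at least 2-fold in the former. The dashed line marks equal values, along which the labelled genes HLA-DRB1, CD74, PTPRC, STAT5A, STAT3, LEF1 and CA9 lie.

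Parental SU-DHL-1 served as a second reference that shares the KI-JK libraries with the first. Against it 9778 of 13065 genes were called (74.8%) and 4403 at 2-fold or more (33.7%). Of 4298 genes that had differed by at least 2-fold, 4070 (94.7%) were called in the same direction and 5 in the opposite. Of all 10473 called, 8288 (79.1%) kept their call and 426 (4.1%) were opposite, so small differences depended on which SU-DHL-1 libraries were used. Mitochondrial transcripts, which were 1.30 to 1.61% of counts in the 6 empty-vector libraries, were 2.92 to 3.82% in the parental ones.

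Markers of other cell types were checked because KI-JK came from an effusion. Mesothelial markers summed to under 1 CPM in every library. Of 14 B cell markers MS4A1, CD79B and CD22 were at or near 0 in all 6 libraries, but the B cell factors PAX5 (11.5, 12.4 and 12.7 CPM against 0) and EBF1 (12.3, 13 and 13 CPM against 0.0424, 0 and 0) were read in KI-JK. Of 8 tested myeloid markers 5 were higher and 2 lower in KI-JK by at least 2-fold (87.5% against 33.8% over all genes). S100A8 (33.1, 32.5 and 31.9 CPM against 0, 0.0704 and 0 CPM), S100A12 (6.06, 7.33 and 5.83 CPM against 0) and S100A9, given above, were among the higher. CD14, LYZ and MPO were at under 1 CPM in all 6 libraries. CSF1R was at 143, 141 and 140 CPM against 20.1, 20.1 and 20.4 CPM. CD163 was at 6.38, 5.48 and 5.00 CPM against 600, 585 and 577 CPM (-6.71 ± 0.06). CSF3R was at under 0.2 CPM in KI-JK and at 91.2, 94.9 and 87.6 CPM in SU-DHL-1. Of natural killer markers KIR2DL4 (151, 155 and 164 CPM against 72.8, 75.3 and 75.1 CPM) and NCR1 (38.5, 41.2 and 46.3 CPM against 11.8, 12.1 and 11.5 CPM) were read in both lines and KLRC1 in KI-JK (43.4, 40.9 and 42.8 CPM against 0, 0 and 0.121 CPM), while KLRD1 and KLRF1 were at 0. Epithelial markers summed to 4.41 to 30.8 CPM in KI-JK and 12.9 to 14.3 CPM in SU-DHL-1. Markers of B cell, myeloid and natural killer lineages were thus read in part in one or both lines, and their part in the other differences was not tested.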

How the data were processed

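RNA-seq counts per gene were deposited by the authors as whole numbers without normalization, 1 table per line. The submitters' processing notes name hg38, STAR 2.6.1d, edgeR 3.24.3 and DESeq2 1.20.0, and the counting tool is not given in the sources used here. Tables were joined on gene identifiers (58735 genes). RefSeq positions placed 38276 on autosomes or the mitochondrial genome. The 2310 genes of X and Y were left out, as were 18149 without a position (0.298 to 0.364% of counts in the 6 libraries). Of the names, 27 had become dates and took RefSeq symbols.

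Comparisons used edgeR 4.0.16 in R 4.3.3 (filterByExpr, TMM, glmQLFit, glmQLFTest, two-sided, 3 libraries per group) with p-values adjusted by Benjamini-Hochberg over every gene tested, and the code was tested on simulated data. SE is the log2 difference divided by the square root of F. No pair of replicates was a duplicate (chi-square per degree of freedom 2.09 to 4.36). Alternatives used DESeq2 1.42.0, other scalings, filters and references, a replicate block, thinning, and each library left out. Named genes were fixed study genes, up to 15 with the largest differences per direction, up to 4 called members per list and direction, with up to 2 not called, and the highest genes of each stretch. Some list members beyond that rule (such as HLA-DRA, CIITA, CD74 and genes at 0) were named for their role. A few genes the rule names are not reported here. Members and lists were chosen with earlier results of these data known.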

Additional observations from a re-analysis of the deposited data

How the results depend on the processing

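The totals of called genes, closely matched genes and genes read in only one line stayed within 1.5 times their values under each alternative. Counts within single lists could move further, as for the mitochondrially encoded mRNAs below. Leaving out 1 library gave 10370 to 10699 called genes and 4635 to 4705 at 2-fold or more in the empty-vector comparison, 10343 to 10484 and 4412 to 4489 with the CSNK2B vector, and 4611 to 6347 and 569 to 784 between the SU-DHL-1 sets. It gave 95 to 112 genes read only in KI-JK, 108 to 143 only in SU-DHL-1, and 4093 to 4242 genes within 1.5-fold. Because the rule for genes read in one line asks every library to pass, leaving 1 out could only keep or add such genes. The replicate block gave 10566 and 4477 calls. Same-numbered libraries of the lines did not deviate together (correlations 0.015, -0.074 and 0.013), so the numbers pair nothing. Other scalings shifted the median of all genes by -0.062 to -0.021 and put 47.9 to 50.3% of calls on the higher side, against 51.3% with TMM. Without a filter on low counts 5404 genes were called at 2-fold or more, with a filter of 1 CPM 3954, with DESeq2 4946 and after thinning to the smallest library 4186. With parental SU-DHL-1 as the reference the direction of 5 named genes turned: IKZF1 (-0.75), IRF4 (-0.26), SMARCA4 (-0.56), GZMA (1.77) and CTSS (0.81). No other alternative turned a named gene. The cause was not tested. Depth limits genes near 0.1 CPM, the most allowed in a line that does not read a gene, where a few counts decide.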

Other observations

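Gene lists that earlier comparisons within SU-DHL-1 had picked were also looked up, and are not independent evidence of a direction. Of 14 genes that lenalidomide moves in SU-DHL-1, 12 were lower in KI-JK, 9 of them by at least 2-fold (median -2.08), and 1 was higher. TM4SF1, a membrane protein, was at 1.21, 0.618 and 1.31 CPM in KI-JK and at 627, 618 and 606 CPM in SU-DHL-1 (-9.21 ± 0.08), and TGM2, a transglutaminase, was lower by 3.68 ± 0.12 on the log2 scale. SLC2A5, a fructose transporter, was at 0.0449, 0.0824 and 0.087 CPM against 66.4, 62.7 and 68.4 CPM. GTPBP8 and IL10 were lower by 1.56 ± 0.06 and 1.45 ± 0.04.

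Of 21 tested genes in which regrown, lenalidomide-resistant SU-DHL-1 cells differ from their parents, 9 were higher in KI-JK and 10 lower by at least 2-fold. PTPRC, PIK3CG, TP73 and S100A9, whose values are given above, were among the higher ones, as was NETO2 (166, 159 and 156 CPM against 0.127, 0.0704 and 0.121 CPM, 10.43 ± 0.12). SULF1, a sulfatase of cell-surface heparan sulfate, was at 0.0449, 0 and 0.087 CPM against 50.4, 51.9 and 48.8 CPM. Of 13 mitochondrially encoded mRNAs 1 differed by 2-fold or more, MT-ND6, at 201, 243 and 196 CPM against 439, 412 and 466 CPM (-1.04 ± 0.06). It fell under 2-fold without KI-JK library 1 or 3, and against parental SU-DHL-1 8 of the 13 were lower by 2-fold or more.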
